A study of Arabidopsis thaliana with 6 samples.

Results

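The level of the plant hormone cytokinin in a tissue is set in part by how fast it is made and how fast it is destroyed. ISOPENTENYLTRANSFERASE (IPT) enzymes carry out the first committed step of synthesis by joining an isoprenoid side chain to an adenine nucleotide, and CYTOKININ OXIDASE/DEHYDROGENASE (CKX) enzymes remove that side chain and so inactivate the hormone irreversibly. In the Arabidopsis root, cytokinin promotes the passage of cells from division to differentiation at the upper end of the meristem, and plants that overexpress a CKX gene have longer roots with a larger meristem. The genes described here are the 7 oxidase genes *CKX1* to *CKX7* and 3 synthesis genes, *IPT3*, *IPT5* and *IPT7*. They were taken by their locus identifiers and make up 10 of the 33201 rows of the table. Each has a row of its own that lists no second locus.

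RNA was sequenced from root tips of *an3*, a loss-of-function line of the transcriptional co-activator gene *AN3* (*ANGUSTIFOLIA 3*, also *GRF-INTERACTING FACTOR 1*), and of the wild type Col. There were 3 samples of *an3* and 3 of Col, all of tips of about 5 mm from seedlings 5 days old, and the labels name no treatment. The *an3* line lacks 1 member of the GIF family only, and its homologs *GIF2* and *GIF3* are still present. The deposited table holds 1 FPKM value (fragments scaled to transcript length and to the number of mapped fragments, so that levels of different genes can be compared) for each genotype and not for each sample. From these 2 values alone no spread between replicates, test or error can be computed, and the columns of the authors' own comparison were not used. The read depth behind each value is unknown, and every ratio below is a description.

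The mutated gene and the tissue were checked first. *AN3* (AT5G28640) had 2.55 FPKM in *an3* tips, against 21.5 FPKM in Col tips, so that 11.9% of the Col value remained. Markers of the root's tissues were present in both genotypes and differed in both directions. Of 4 meristem and niche markers, *SCR* had 21.2 FPKM in *an3* and 25.1 FPKM in Col. *PLT1* was the only one past 1.5-fold, and only just, at 1.47 FPKM in *an3* and 0.944 FPKM in Col. All 3 xylem markers had a log2 ratio above 0, from 0.17 to 0.34. Of 3 endodermal markers, *CASP1* had 891.1 FPKM in *an3* and 681.4 FPKM in Col, *CASP2* had 339.9 FPKM in *an3* and 256.2 FPKM in Col, and *MYB36* had a log2 ratio of -0.05. All 3 root hair markers were below 0, and *RHD6* had 15.9 FPKM in *an3* and 24.0 FPKM in Col, just past 1.5-fold. Of 4 shoot markers, *RBCS2B* had 0 FPKM in each genotype's list, and *CAB1*, the highest of them, had 8.63 FPKM in *an3*, against 27.1 FPKM in Col. The summed level of the 4 shoot markers was 10.5 FPKM in *an3* and 31.8 FPKM in Col, and the part of these marker differences in the values below was not tested.

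The members covered a wide range of levels, and the synthesis genes stood above the oxidase genes. In *an3* tips the order from high to low was *IPT5*, *IPT7*, *IPT3*, *CKX5*, *CKX3*, *CKX4*, *CKX7*, *CKX6* and *CKX1*, with *CKX2* listed at 0. In Col tips *CKX4* stood above *CKX3* and *CKX1* above *CKX6*, and the rest of the order was the same. Which neighbours in these orders differ beyond the spread between samples cannot be said. Only the 3 IPT genes averaged 1 FPKM or more over the genotypes. All 7 oxidase genes lay below it and are among the 15972 rows of the table that did.

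**Figure D1:**
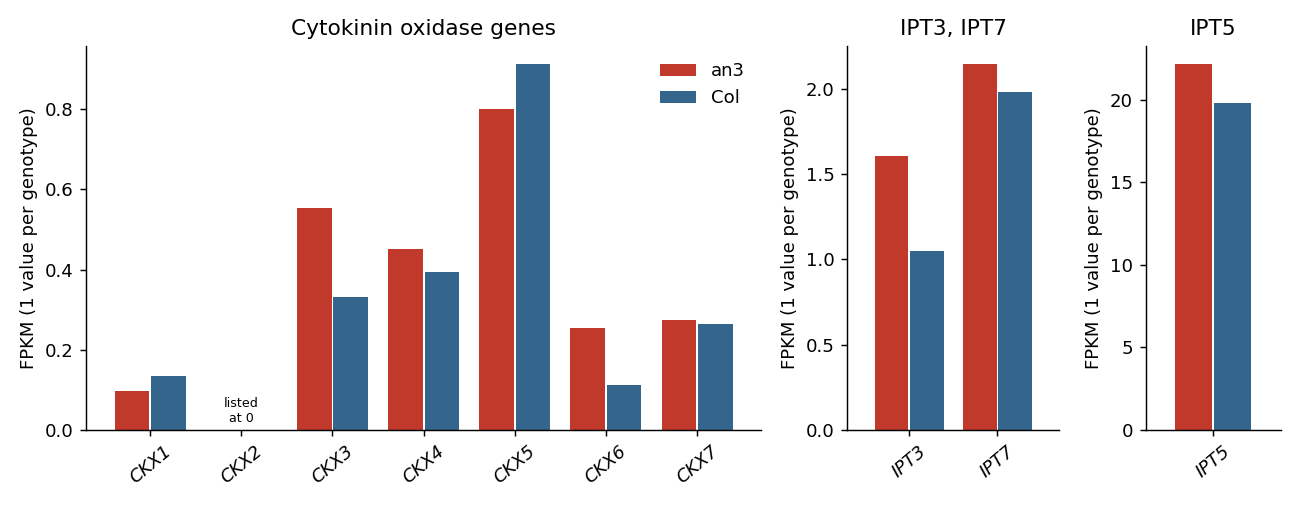
Level of each member in *an3* (red, left bar) and Col (blue, right bar) root tips in FPKM, with 1 authors' value per genotype and no error bars; the 3 panels have different y axes, each starting at 0. The highest bars are those of *IPT5* at 22.2 and 19.8 FPKM, and no oxidase gene reaches 1 FPKM.

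*IPT5* (AT5G19040, chromosome 5) was by far the most abundant member. This gene is known from the root cap columella and from young lateral root primordia. It had 22.2 FPKM in *an3* tips and 19.8 FPKM in Col tips, a difference of 2.36 FPKM and a ratio of 1.12. Its level exceeded that of 81.2% of all rows. The log2 ratio of *IPT5* was 0.16, beside a median absolute log2 ratio of 0.14 among rows at 10 to under 30 FPKM. *IPT5* was 10.3 times *IPT7* in *an3* and 9.99 times *IPT7* in Col, and it made up 85.5% of the summed level of the 3 synthesis genes in *an3*, against 86.7% in Col. *IPT5* thus dominated the sum of these 3 genes in both genotypes. Outside the members, *IPT2* had 5.20 FPKM in *an3* and 5.73 FPKM in Col, and *IPT9* had 5.01 and 5.06 FPKM. Both stood above *IPT7* and *IPT3*. Of 4 root cap markers, 3 were above a log2 ratio of 0, and their summed level was 110.4 FPKM in *an3* and 101.9 FPKM in Col. None of the 4 was listed at 0. Their part in the *IPT5* value was not tested, and in bulk tissue fewer cells of a type and less RNA per cell cannot be told apart.

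*IPT7* (AT3G23630, chromosome 3) had 2.14 FPKM in *an3* and 1.98 FPKM in Col, which is a ratio of 1.08 and the smallest relative difference among the synthesis genes. *IPT3* (AT3G63110, chromosome 3), which is known from the phloem and for its induction by nitrate, had 1.61 FPKM in *an3* and 1.05 FPKM in Col. The difference of 0.55 FPKM gives a ratio of 1.53 as the values stand and of 1.48 after 0.1 FPKM is added to each, the form used for all ratios on the log2 scale here because it damps the noise of low values. *IPT3* therefore lay at the edge of the 1.5-fold limit used in this description, just past it without an addition and just short of it with one. At 1 to under 3 FPKM, the range that holds *IPT3* and *IPT7*, 9.98% of 2807 rows were at least 1.5-fold higher and 8.51% at least 1.5-fold lower. All 5 phloem markers had a log2 ratio above 0, from 0.03 to 0.44, but only *SUC2* averaged 1 FPKM or more. The other ratios rest on lower levels, where ratios scatter more widely. The 5 markers summed to 4.70 FPKM in *an3* and 3.65 FPKM in Col, and none was listed at 0. Much of that sum was *SUC2*, a sucrose carrier of phloem companion cells, which had 2.58 FPKM in *an3*, against 1.91 FPKM in Col. Their part in the *IPT3* value was not tested.

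Among the oxidase genes, *CKX5* (AT1G75450, chromosome 1) was the highest. It had 0.801 FPKM in *an3* and 0.913 FPKM in Col, a log2 ratio of -0.17. *CKX4* (AT4G29740, chromosome 4) had 0.452 FPKM in *an3* and 0.394 FPKM in Col, a log2 ratio of 0.16. Both encode enzymes that are thought to act outside the cell, and *CKX4* is known from the root cap. On the log2 scale they thus differed in opposite directions and by about the same small amount.

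*CKX3* (AT5G56970, chromosome 5), whose product has been placed in the vacuole, had 0.554 FPKM in *an3* and 0.331 FPKM in Col. *CKX6* (AT3G63440, chromosome 3), known from vascular tissue, had 0.255 FPKM in *an3* and 0.111 FPKM in Col. These 2 genes had the highest log2 ratios of all members, 0.60 for *CKX3* and 0.75 for *CKX6*, and were the only ones past 1.5-fold when no minimum level was set. The absolute differences were small, 0.223 FPKM for *CKX3* and 0.144 FPKM for *CKX6*. With 1 FPKM added in place of 0.1 FPKM, the log2 ratio was 0.22 for *CKX3* and 0.18 for *CKX6*.

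The remaining oxidase genes were lower still. *CKX7* (AT5G21482, chromosome 5), which encodes the cytosolic form of the enzyme, had 0.274 FPKM in *an3* and 0.264 FPKM in Col and was nearly equal in both. *CKX1* (AT2G41510, chromosome 2) had 0.0963 FPKM in *an3* and 0.135 FPKM in Col, a log2 ratio of -0.26, the lowest of the members. *CKX2* (AT2G19500, chromosome 2), whose product is secreted and which is best known from the shoot and the seed, was listed at 0 in both genotypes. A value of 0 in this table can also be an estimate that failed, so it shows only that no level was assigned.

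**Figure D2:**
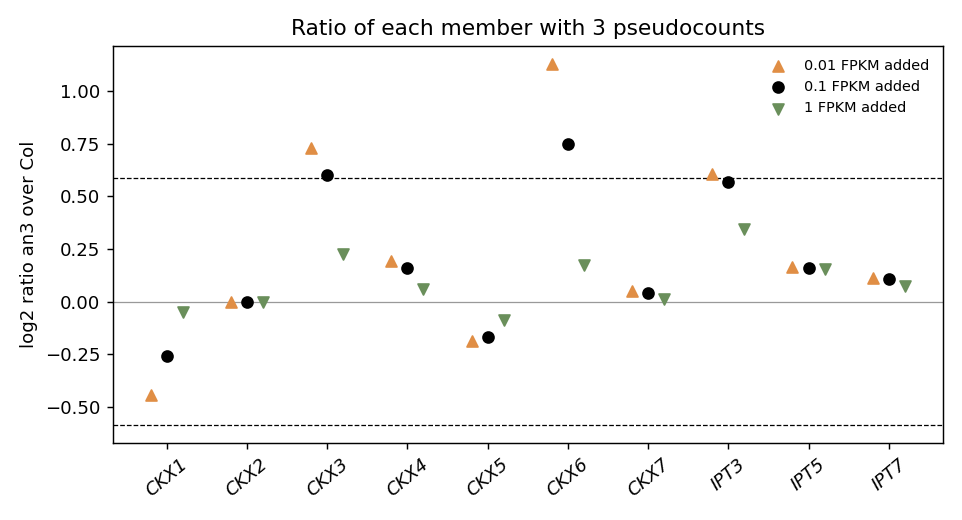
Log2 ratio of *an3* over Col for each member (x axis) after adding 0.01, 0.1 or 1 FPKM to both values, with dashed lines at 1.5-fold. *CKX6*, *CKX3* and *IPT3* move across or close to the upper line with the amount added, from 1.13 to 0.18 for *CKX6*, whereas *IPT5* stays at 0.16 or 0.15.

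The members were next set against the whole table. Of the 3 members that averaged 1 FPKM or more, 0 were at least 1.5-fold higher in *an3* and 0 at least 1.5-fold lower. Of all 17229 rows with that level, 3.89% were higher and 3.06% lower by this limit. Of the 6 members at 0.1 to under 1 FPKM, *CKX3* and *CKX6* were higher and 0 were lower. Of all 3260 rows in that range, 20.4% were at least 1.5-fold higher and 18.0% at least 1.5-fold lower, so ratios past the limit were common at such levels. The median absolute log2 ratio was 0.43 in this low range and 0.16 among rows with at least 1 FPKM. The median log2 ratio of the 3 synthesis genes was 0.16, beside -0.0034 for all rows with at least 1 FPKM. That of the 7 oxidase genes was 0.04, with *CKX2* included, whose log2 ratio is 0 only because both its values are 0. For all rows at 0.1 to under 1 FPKM, a range without *CKX2*, it was 0.0091, so these medians cover unlike sets. In total 7 members were listed higher and 2 lower in *an3*, a count that includes differences as small as that of *CKX7*. The same count over all rows was not made, so no rise of the families is read from it.

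**Figure D3:**
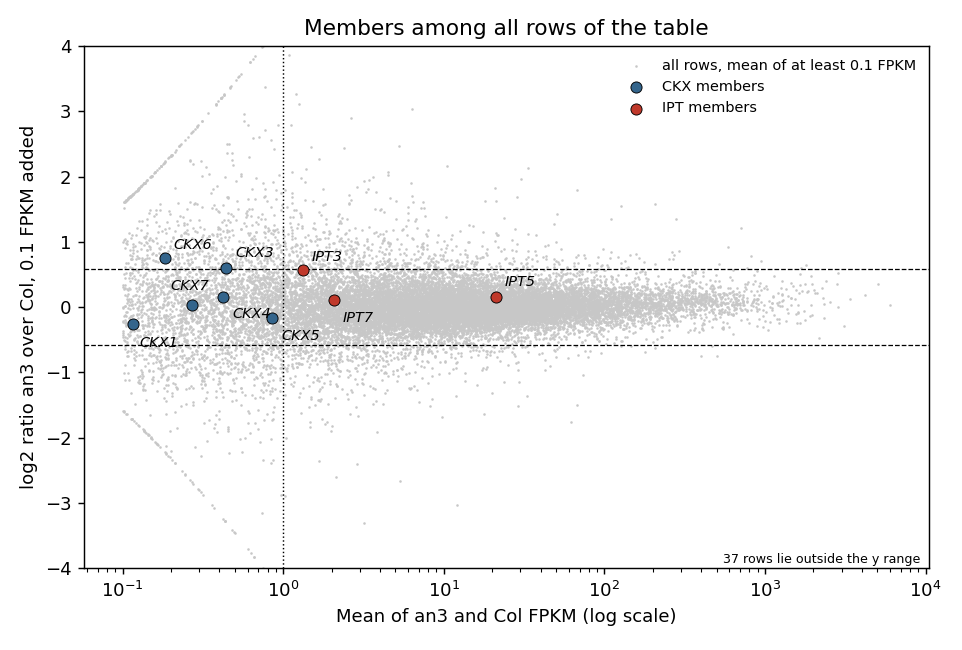
Log2 ratio of *an3* over Col (y axis, 0.1 FPKM added) against the mean FPKM of both genotypes (x axis, log scale) for all rows that average 0.1 FPKM or more (grey), CKX members (blue) and IPT members (red); dashed lines mark 1.5-fold, the dotted line 1 FPKM, and *CKX2*, at 0, is not drawn. The scatter of the grey points widens to the left, where *CKX3* and *CKX6* lie at 0.60 and 0.75 among many rows of equal or larger ratio.

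The summed level of the 3 IPT members, a part of their family, was then set beside that of the 7 oxidase genes. The 3 synthesis genes summed to 25.9 FPKM in *an3* and 22.8 FPKM in Col, a ratio of 1.13. The 7 oxidase genes summed to 2.43 FPKM in *an3* and 2.15 FPKM in Col, also a ratio of 1.13. Transcripts of these 3 synthesis genes were therefore 10.7 times the oxidase transcripts in *an3* and 10.6 times in Col. These figures hold for the 3 genes only. All 9 IPT genes, *IPT2* and *IPT9* included, summed to 36.8 FPKM in *an3* and 34.1 FPKM in Col, a lower ratio of 1.08. These are sums of transcript levels and not of enzyme activity. Within the oxidase sum, *CKX3*, *CKX4* and *CKX5* together made up 74.3% in *an3* and 76.3% in Col. The share of *CKX5* was 32.9% in *an3*, against 42.5% in Col, while that of *CKX3* was 22.8% in *an3*, against 15.4% in Col. *CKX6* held 10.5% of the oxidase sum in *an3* and 5.18% in Col. The total was similar while its makeup differed somewhat, with the reserve that each share rests on values under 1 FPKM.

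Some of the low values are uncertain for another reason. In the TAIR10.1 annotation, 4 of the 10 members overlap other genes, namely *CKX1*, *CKX2*, *CKX5* and *CKX6*. *CKX1* is overlapped over 69.9% of its length by AT2G41515, a protein-coding gene on the opposite strand that has no row in the files used here, so its level is not known. *CKX2* shares 21.1% of its length with a noncoding RNA gene, AT2G00640, on the opposite strand, which likewise has no row. *CKX6* is overlapped over 93.9% of its length by a long noncoding RNA gene on the opposite strand, AT3G63445, which had 1.03 FPKM in *an3* and 0.904 FPKM in Col and was thus above *CKX6* in both. *CKX5* shares 17.0% of its length with *UBC16*, a ubiquitin-conjugating enzyme gene on the opposite strand that had 28.5 FPKM in *an3* and 22.0 FPKM in Col. The sources do not say if strand entered the counting, and without strand the reads of such partners cannot be told apart. *IPT3*, *IPT5*, *IPT7*, *CKX3*, *CKX4* and *CKX7* overlap no other annotated gene.

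The other genes of the pathway place these values in context. They form 8 lists of 52 genes in all, of which 31 averaged 1 FPKM or more, and of these 2 were at least 1.5-fold higher and 2 at least 1.5-fold lower in *an3*, beside the 3.89% higher and 3.06% lower of all rows at that level. Among the remaining IPT genes, *IPT2* and *IPT9*, which modify tRNA and give rise to cis-zeatin, were well expressed. *IPT2* had 5.20 FPKM in *an3* and 5.73 FPKM in Col, and *IPT9* had 5.01 FPKM in *an3* and 5.06 FPKM in Col. *IPT1*, which makes the same kind of product as the members, had 0.635 FPKM in *an3* and 0.488 FPKM in Col, and *IPT4*, *IPT6* and *IPT8* were listed at 0 in both. The 7 ATP/ADP-type IPT genes together had 26.5 FPKM in *an3* and 23.3 FPKM in Col.

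*CYP735A1*, which hydroxylates the side chain to give trans-zeatin forms, had 1.26 FPKM in *an3* and 1.31 FPKM in Col. LONELY GUY (LOG) enzymes release the active base, and *LOG7* and *LOG8* made up 96.6% of the summed level of the 8 LOG genes in *an3* and 97.2% in Col. *LOG7*, the highest, had 40.1 FPKM in *an3* and 48.2 FPKM in Col. The LOG genes summed to 61.3 FPKM in *an3* and 69.4 FPKM in Col, a direction opposite to that of the IPT members. Of the LOG genes under 1 FPKM, *LOG5* had the highest log2 ratio, 0.58, followed by *LOG2* at 0.40. *LOG5* had only 0.101 FPKM in *an3* and 0.0342 FPKM in Col, so its ratio rests on values near 0. Among the sugar-conjugating enzymes, *UGT85A1*, which glucosylates trans-zeatin, was the highest, at 18.2 FPKM in *an3* and 25.1 FPKM in Col, a log2 ratio of -0.46, beside a median absolute log2 ratio of 0.14 among rows at 10 to under 30 FPKM. Of 5 transporters, the highest was *PUP14*, a purine permease that takes up cytokinin, at 61.9 FPKM in *an3* and 51.0 FPKM in Col. In these 5 lists, from the other IPT genes to the transporters, 0 genes that averaged 1 FPKM or more were past the limit.

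Of the pathway genes outside the members, only *AHP1*, *ARR11*, *ARR5* and *ARR6* averaged 1 FPKM or more and were past 1.5-fold. None of these is a receptor, and the receptor genes *AHK2*, *AHK3* and *AHK4* had log2 ratios of -0.22, -0.07 and -0.11. The phosphotransfer gene *AHP1*, the highest of its list, had 164.8 FPKM in *an3* and 109.6 FPKM in Col, a log2 ratio of 0.59. *ARR11*, a type-B response regulator, had 1.55 FPKM in *an3* and 0.995 FPKM in Col, also a log2 ratio of 0.59. With 0.1 FPKM added, both were only just past the limit, at ratios of 1.503 for *AHP1* and 1.51 for *ARR11*. *IPT3*, at 1.48, was just short of it, so this split between genes rests on a narrow margin. *ARR1*, the type-B regulator with the highest level, had 49.8 FPKM in *an3* and 54.7 FPKM in Col, and *SHY2* (*IAA3*), an auxin response repressor that links both hormones in the root meristem, had 4.07 FPKM in *an3* and 4.19 FPKM in Col. Type-A response regulators are rapidly induced by cytokinin, as several CKX genes are. Of the 6 type-A genes with at least 1 FPKM, 2 were at least 1.5-fold lower in *an3*, beside 3.06% of all rows at that level. These were *ARR5*, at 7.27 FPKM in *an3* and 13.1 FPKM in Col, and *ARR6*, at 9.56 FPKM in *an3* and 16.2 FPKM in Col. *ARR7*, under that minimum on average, had 0.198 FPKM in *an3* and 1.04 FPKM in Col, while *ARR8*, the highest of the list, had 48.5 FPKM in *an3* and 50.3 FPKM in Col. *ARR3* differed the other way, at 35.9 FPKM in *an3* and 29.6 FPKM in Col.

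**Figure D4:**
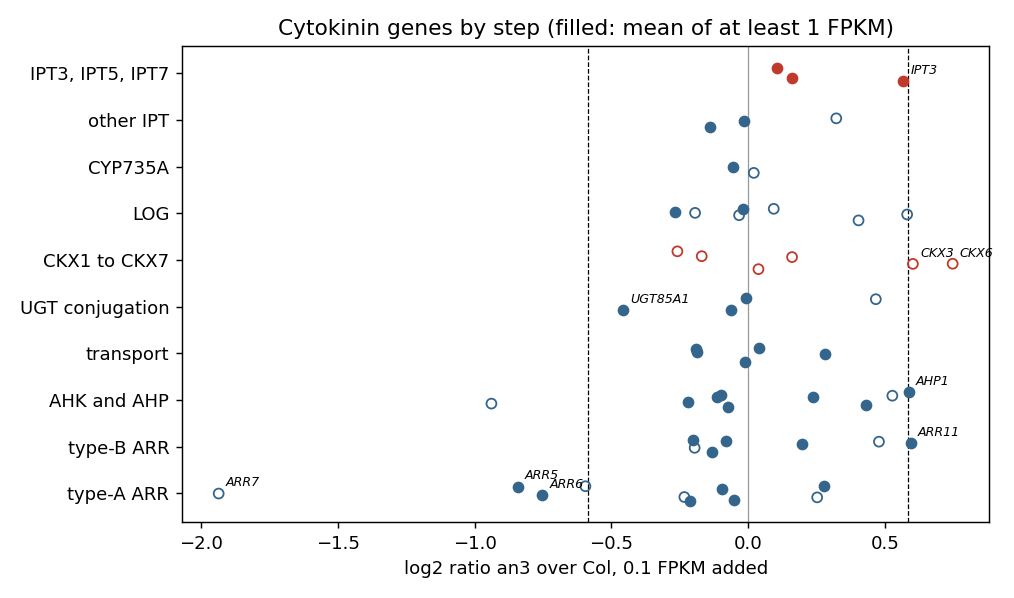
Log2 ratio of *an3* over Col (x axis, 0.1 FPKM added) of cytokinin genes by step (rows), with members in red, other genes in blue, open circles for a mean under 1 FPKM and dashed lines at 1.5-fold; genes listed at 0 in both genotypes are not drawn. The synthesis and oxidase members lie between -0.26 and 0.75, and *ARR5* and *ARR6* are the only filled points left of the lower line.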

How the data were processed

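Root tips of *an3* and Col, 3 samples each, were profiled by RNA-seq. The authors processed the reads through TuxNet, which trims with ea-utils fastq-mcf, aligns with HISAT2 and quantifies and compares with Cufflinks. Versions, genome build and annotation: not given in the sources used here. Each deposited FPKM value is an estimate by the authors, 1 per genotype for its 3 samples together. The table also holds 2 columns of the authors' own comparison, a q-value and a log2 fold change, which were not used.

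For log2 ratios (*an3* over Col), 0.1 FPKM was first added to each value. A gene was counted as higher or lower at 1.5-fold or more if its mean was at least 1 FPKM. With pooled values there was no test between replicates, and the depth is unknown. Members and pathway lists were chosen with earlier results of these data known. All 10 members are named, and of each list the gene with the highest mean and those past 1.5-fold with at least 1 FPKM in the higher genotype. Marker genes were fixed as lists. The low range of 0.1 to under 1 FPKM and the overlap check were chosen after the values were seen. So were the ranges of 1 to under 3 FPKM and of 10 to under 30 FPKM. Names matched the TAIR10.1 table for all 90 listed genes. No coordinates or sequences are printed, since the build is not known. Alternatives were pseudocounts of 0.01 and 1 FPKM, a rescaling, other minimums and folds, and leaving out rows with several loci. Python 3.11.15, pandas 2.3.3, numpy 2.4.6 and matplotlib 3.10.9 were used.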

Additional observations from a re-analysis of the deposited data

How the results depend on the processing

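The fold of *an3* over Col, of each member and of both family sums, and the members' median fold changed by less than 1.5 times under every alternative that was run. On the log2 scale the ratios of low genes moved with the pseudocount, from 0.75 to 0.18 for *CKX6* and from -0.26 to -0.05 for *CKX1* with 1 FPKM added. The count of members at least 1.5-fold higher was 0 in the description above. It was 1 with 0.01 FPKM added (*IPT3*), 1 at the lower of the 2 other fold limits (*IPT3*), 1 with a minimum mean of 0.3 FPKM (*CKX3*) and 2 with no minimum (*CKX3* and *CKX6*). The count lower was 0 under each. Among the other lists, the count of receptor and phosphotransfer genes at least 1.5-fold higher, 1 above, was 0 with 1 FPKM added, 2 at the lower fold limit and 0 at 2-fold, and 1 gene was lower with no minimum. The count of type-B regulators higher, 1 above, was 0 with 1 FPKM added and 0 at 2-fold. The count of type-A regulators lower, 2 above, was 4 with no minimum and 0 at 2-fold, and 1 conjugation gene was lower at the lower fold limit. With another pseudocount the ratios themselves move, and with the other settings the limit or the genes counted change. No paired analysis was possible because the table holds 1 value per genotype, and leaving out each replicate was not run for the same reason. The depth is unknown, so the counting error of the oxidase genes, all under 1 FPKM, cannot be given.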
